A study of Mus musculus with 16 samples.

Results

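The genes described here build the machinery that receives, cuts and glycosylates new secretory and membrane proteins at the endoplasmic reticulum (ER). They are the subunits of the Sec61 channel and its partners, of the TRAP complex, of signal peptidase, of the signal recognition particle and its receptor, and of oligosaccharyltransferase, together with 4 folding enzymes that act on the arriving chains. The list names 36 mouse genes by symbol. Of these, 35 had a probe set annotated with 1 gene symbol, among 18193 genes so measured, and all 35 were bright enough to be tested among 10916 genes. Sec61g was not analysed here because its probe set carries several symbols. Each gene was read from the probe set with the highest mean over all arrays.

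The values came from livers of mice 3 to 6 months old, either global Gcn2-/- animals or their wild-type littermates. Livers were perfused in a single pass with medium that contained methionine or from which methionine had been left out. Part of each homogenate's detergent supernatant gave the unfractionated RNA. The polysome RNA came from the heavy fractions of a sucrose gradient, which hold mRNAs with several ribosomes on them. Genotype, medium and fraction make 8 groups, and each group has 2 Affymetrix arrays, each hybridised with RNA pooled from 2 livers, so that n = 2 pools per group and 16 arrays in all. Gcn2 was absent from every cell of the knockout mice, not from hepatocytes alone, and all 16 arrays came from perfused livers, so none shows the organ before perfusion.

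Proteins destined for secretion carry a hydrophobic signal sequence. As it leaves the ribosome it is bound by the signal recognition particle, which docks the ribosome on its receptor at the ER membrane. The chain then passes through the Sec61 channel while signal peptidase removes the signal and oligosaccharyltransferase attaches a preassembled glycan to asparagine residues. Hepatocytes make most plasma proteins by this route. Gcn2, encoded by Eif2ak4, is a kinase that binds uncharged tRNA and phosphorylates the initiation factor eIF2 when an amino acid is lacking.

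Many genes of ER protein folding are known targets of the unfolded protein response, which acts through the ER stress element, a CCAAT box followed at a fixed distance by the letters CCACG. The promoters of the members that hold this element are shown because of Pdia6, one of them. It gave the largest response to methionine among the members in wild-type polysome RNA. RefSeq promoters (GRCm38.p6) were matched for 26 of the 35 members, and the 250 bases before the start were searched on both strands. The full element, CCAAT and CCACG with 9 bases of any kind between them, was found in 2 members, Canx and Pdia6, and in 0.13% of 27025 genes. A shorter form that ends in CCA, and so takes in every match to the full element, was found in 4 members, Canx, Magt1, Pdia3 and Pdia6, against 1.12% of genes. P4hb, Ddost and Rpn1, also called higher without methionine in wild-type polysome RNA, were among the 26, and neither form was found in them. The only CCAAT boxes of P4hb and Rpn1 began 14 and 6 bases before the start. Either form there would run past the searched bases, so the search could not find it. Pdia3 holds the shorter form at 2 places, of which the one nearer the start is shown. In the lines below, on the strand of the gene and 5′ to 3′, the capitals mark the match, the full element in Canx (chr11:50325780-50325838, minus strand) and Pdia6 (chr12:17266471-17266529, plus strand) and the shorter form in Pdia3 (chr2:121413853-121413901, plus strand) and Magt1 (chrX:106011969-106012025, minus strand).
Canx: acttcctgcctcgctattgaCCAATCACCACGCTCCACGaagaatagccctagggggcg
Pdia6: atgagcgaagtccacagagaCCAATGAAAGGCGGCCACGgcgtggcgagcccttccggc
Pdia3: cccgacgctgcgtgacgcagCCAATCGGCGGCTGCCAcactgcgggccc
Magt1: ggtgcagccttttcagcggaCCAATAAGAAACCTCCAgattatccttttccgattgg
The bare CCAAT box, contained in both forms, was found in 15 of the 26 members and in 37.5% of genes. The ER stress element II (ATTGG and CCACG with 1 base between them), the core of the unfolded protein response element (TGACGTGG) and the C/EBP-ATF element (TGATG and AA with 1 base between them) were found in 0 of the 26 members, against 0.037%, 0.603% and 3.91% of genes. These matches describe letters in a window and are no record of binding.

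The arrays are given on the authors' linear signal scale, on which every array had a trimmed mean of 150.0, and fold changes are differences of log2(signal + 16). Eif2ak4 lay at 62.9 to 104 (median 87.7) in the 8 wild-type arrays and at 21.2 to 52.9 (median 43.1) in the 8 knockout arrays, and asparagine synthetase (Asns), a target of the Gcn2 pathway, at 378 to 1137 against 39.2 to 92.4. All arrays thus lay on the side of their label. The 9 hepatocyte markers were all bright enough to be tested and summed to 83952 to 119399 per array. Bulk arrays cannot tell fewer cells of a type from less RNA per cell, and this holds for each value below. Among the members, array signals ran from 58.9 for Tusc3 to 4619 for P4hb.

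Subunits of the same complexes lay on both sides when polysome RNA was compared with unfractionated RNA. Over all 4 combinations of genotype and medium, 16 of the 35 passed the test at an adjusted p of 0.05 (limma with Benjamini-Hochberg adjustment over all genes tested), where 31.4% of all genes did. Of these, 7 were higher in polysome than in unfractionated RNA (16.6% of all genes) and 9 were lower (14.8%). The median of the members was -0.04 against 0.02 for all genes tested. All but Sec61b of the 16 calls were also made without any 1 of the 16 arrays. The call of Sec61b, 0.23 ± 0.07 (log2 ± SE, adjusted p = 0.027), was lost without any 1 of 8 arrays, and its values over the 16 ran from 0.20 to 0.26.

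**Figure D1:**
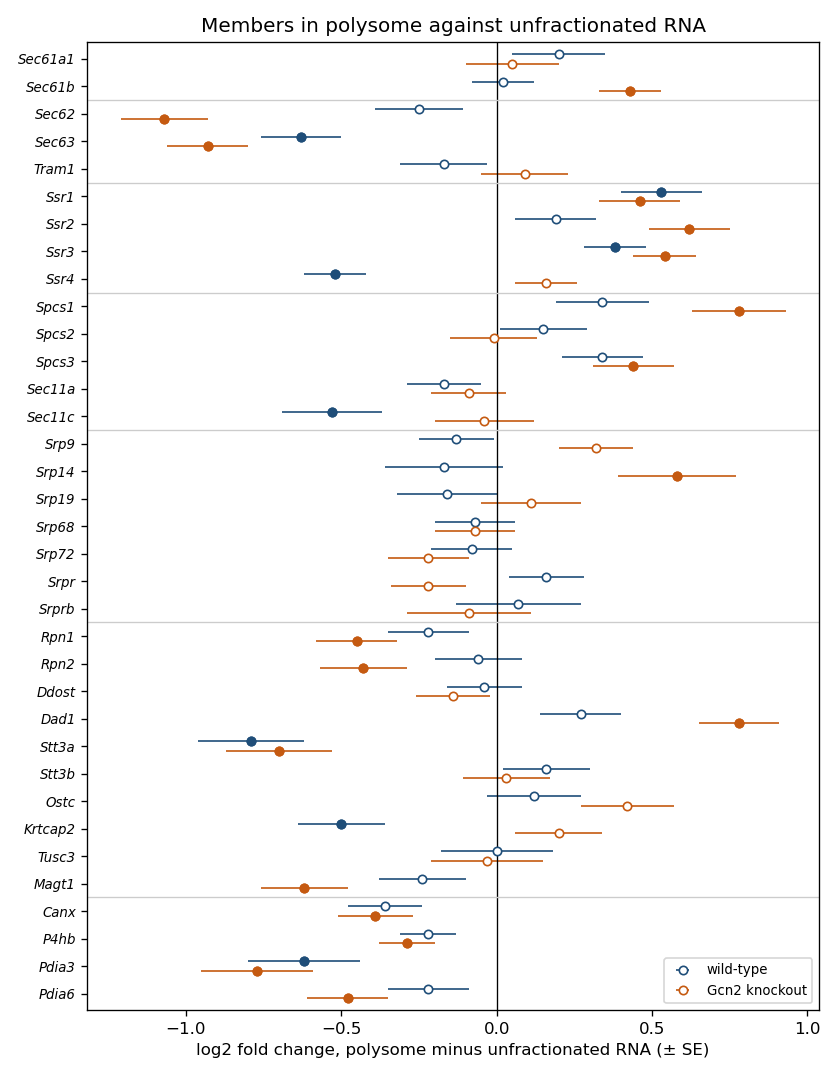
Polysome minus unfractionated RNA for the 35 members, as log2 fold change ± SE from limma, in wild-type (blue) and Gcn2 knockout (orange) livers, 4 arrays on each side of each point; filled points passed an adjusted p of 0.05 and grey lines part the roles (channel, channel partners, TRAP, signal peptidase, signal recognition particle and receptor, oligosaccharyltransferase, folding enzymes). Sec62, Sec63, Stt3a and Pdia3 lie on the left in both genotypes, and Ssr1, Ssr3 and Spcs3 on the right.

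Sec62 and Sec63, 2 of the 3 channel partners, and Stt3a, 1 of the 2 catalytic subunits of oligosaccharyltransferase, were lower. Sec63, the membrane J-domain protein that brings the lumenal chaperone to the channel, had a signal of 315 to 543 (median 346) in the 8 polysome arrays and of 486 to 772 (median 656) in the 8 unfractionated arrays, a difference of -0.78 ± 0.09 (adjusted p = 1.8e-05). Sec62, its partner in moving short or slowly engaging chains, had 754 to 1961 (median 1057) against 1433 to 2259.6 (median 1906), or -0.66 ± 0.10 (adjusted p = 0.00017). Stt3a, the catalytic subunit that glycosylates chains while they enter, had 275 to 630.3 (median 434) against 552 to 970.4 (median 732), or -0.74 ± 0.12 (adjusted p = 0.00021). The ranges overlapped in each of the 3 genes, and in each the highest polysome array was a wild-type one without methionine. Stt3b, the catalytic subunit of the other form of the enzyme, had 0.09 ± 0.10 (adjusted p = 0.53), and Tram1, a membrane protein beside the channel, had -0.04 ± 0.10 (adjusted p = 0.79).

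Subunits of TRAP and signal peptidase, and Dad1, were on the other side. Ssr3, the gamma subunit of the TRAP complex that assists weak signal sequences, had 3075 to 3776 (median 3438) in polysome arrays and 2133 to 3182 (median 2379.5) in unfractionated arrays, a difference of 0.46 ± 0.07 (adjusted p = 0.00025). Only the unfractionated wild-type arrays without methionine, at 2912 and 3182, came near the polysome values. Spcs1, a small noncatalytic subunit of signal peptidase, had 1946 to 3689 (median 2834) against 1469 to 2325 (median 1844), or 0.56 ± 0.11 (adjusted p = 9e-04). Dad1, a small noncatalytic subunit of oligosaccharyltransferase, had 1775 to 2934 (median 2528) against 1447 to 2429.9 (median 1609.5), or 0.52 ± 0.09 (adjusted p = 6e-04). Both overlapped with unfractionated RNA, and in both the lowest polysome array was a wild-type one without methionine. Ssr1 and Ssr2, the alpha and beta subunits of TRAP, rose by 0.49 ± 0.09 and 0.41 ± 0.09, and Spcs3, a further noncatalytic subunit of signal peptidase, by 0.39 ± 0.09.

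**Figure D2:**
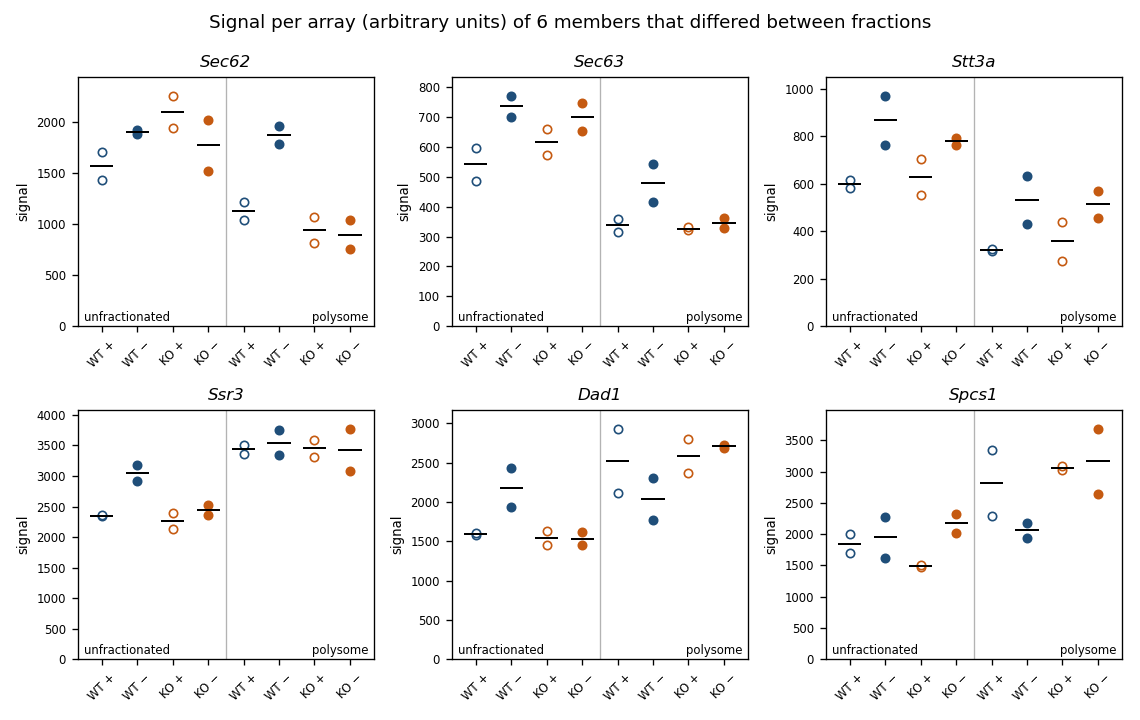
Signal per array of 6 members that differed between the fractions (linear axis from 0, arbitrary units), with WT for wild-type, KO for knockout, + and − for medium with and without methionine; open points are arrays with methionine, filled points arrays without it, and the bar is the mean of 2 arrays. Sec62 in wild-type polysome RNA without methionine, at 1961 and 1781, sits with the unfractionated arrays.

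By role, 3 of the 4 TRAP subunits were higher and 0 lower, 2 of the 5 signal peptidase subunits were higher and 0 lower, and of the 10 oligosaccharyltransferase subunits 1 was higher and 3 lower (Rpn1 at -0.34 and Magt1 at -0.43, beside Stt3a). Rpn1 is ribophorin I, a scaffold subunit, and Magt1 an oxidoreductase subunit of the Stt3b form. All 4 folding enzymes fell: Pdia3, the disulfide isomerase that works with calnexin, by 0.69, calnexin itself (Canx), a lectin chaperone, by 0.37, Pdia6, a disulfide isomerase, by 0.35 and protein disulfide isomerase (P4hb) by 0.26. Median scaling of the arrays ended the calls of Sec61b (0.20, adjusted p = 0.26), Spcs3 (0.37, 0.064), P4hb (-0.28, 0.093) and Pdia6 (-0.37, 0.055). Quantile normalization ended that of P4hb (-0.07, adjusted p = 0.47), the mean of a gene's probe sets those of Rpn1 (-0.25, 0.1) and Pdia6 (-0.07, 0.67), and eBayes without trend that of Sec61b. Of the 7 genes of the signal recognition particle and its receptor 0 passed in either direction, with values from -0.15 to 0.21. Where the 16 called members had other probe sets, 21 of 23 of these had the same sign. Their sizes varied. The brightest other probe sets of Spcs1 and Ssr1 (mean signals 1993 and 387) had 0.25 and 0.1. Those of Ssr3 and Dad1 had 0.46 and 0.47. In wild-type livers those of Spcs1 and Ssr1 had -0.01 and 0, and a dimmer one of Ssr1 (57.5) had 0.55.

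The other members did not pass between the fractions in the fit without pairs. With the pool shared by both fractions as a block 4 of them passed as well, Ssr4 (adjusted p = 0.037), Sec11c (0.036) and Rpn2 (0.029) as lower and Ostc (0.026) as higher, and none of the 16 calls was lost. The values without the block follow. Sec61a1, which forms the channel itself, had 0.13 ± 0.10 (adjusted p = 0.41), and Ssr4 had -0.18 ± 0.07 (adjusted p = 0.075). In signal peptidase the catalytic subunits Sec11a and Sec11c had -0.13 and -0.29 and the accessory subunit Spcs2 had 0.07. In oligosaccharyltransferase Ostc, which links the Stt3a form to the channel, had 0.27 ± 0.10 (adjusted p = 0.063) and Rpn2 had -0.25 ± 0.10 (adjusted p = 0.066). Ddost, Krtcap2 and Tusc3 had -0.09, -0.15 and -0.02. In the signal recognition particle Srp68 and Srp72, which bind each other on its RNA, had -0.07 and -0.15, and the receptor subunits Srpr and Srprb had -0.03 and -0.01.

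Outside the members, Ost4, a very short subunit of oligosaccharyltransferase, fell by 1.11 ± 0.10 (adjusted p = 8e-07), and it and Naca were the 2 of 6 further targeting genes that were lower, with 0 higher. In the ER membrane protein complex and the route of tail-anchored insertion 7 of 16 genes were higher and 1 lower, and among other ER chaperones and disulfide enzymes 4 of 21 were higher and 6 lower, with Hspa5, the lumenal chaperone recruited by Sec63, at -0.76 ± 0.12 (adjusted p = 0.00021). Of 35 secreted plasma proteins 24 were lower and 0 higher (median -0.29), and of 42 cytosolic ribosomal proteins 38 were lower and 0 higher (median -0.97). Markers of non-parenchymal cells also differed between the fractions: 8 of 9 Kupffer cell markers were lower in polysome RNA, with summed signals of 868 to 1694 against 1461 to 3037, and 3 of 6 endothelial markers were lower, with 502 to 887 against 769 to 1023. Hepatocyte markers also moved, with 5 of 9 lower and 1, Hnf4a, higher (median -0.27). Of 5 stellate cell markers 3 were lower, and of 2 cholangiocyte and 4 B and plasma cell markers 0 passed. Their part in the members' values was not tested.

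The 2 genotypes were also compared each on its own. In wild-type livers 8 members passed, where 15% of all genes did, with Ssr1 and Ssr3 as the 2 that were higher (7.85% of all genes) and Sec63, Ssr4, Sec11c, Stt3a, Krtcap2 and Pdia3 as the 6 that were lower (7.19%). In knockout livers 18 passed, where 20.3% of all genes did. The 8 higher ones (9.96% of all genes) were Sec61b, Ssr1, Ssr2, Ssr3, Spcs1, Spcs3, Srp14 and Dad1, at 0.43 to 0.78. The 10 lower ones (10.3%) were Sec62, Sec63, Rpn1, Rpn2, Stt3a, Magt1, Canx, P4hb, Pdia3 and Pdia6, from -1.07 for Sec62 to -0.29 for P4hb. These counts were less firm than the joint one, since 3 of the 8 and 10 of the 18 calls were also made without any 1 array. The difference between the genotypes, tested as an interaction with limma, passed for 0 of 35 members (0% of all genes), and 10 members had an unadjusted p under 0.05. The members with the smallest p values were Ssr4, the delta subunit of TRAP, at 0.68 ± 0.15 (adjusted p = 0.16), Sec62 at -0.82 ± 0.20 (adjusted p = 0.21) and Krtcap2, a subunit of the Stt3a form of oligosaccharyltransferase, at 0.69 ± 0.20 (adjusted p = 0.30). Ssr4 was -0.52 ± 0.10 in wild-type and 0.16 ± 0.10 in knockout livers (adjusted p = 0.0034 and 0.31). With the pool as a block its interaction had an adjusted p of 0.041. With the mean of its probe sets the interaction was 0.10 (adjusted p = 0.97). Without both wild-type polysome arrays from medium lacking methionine it was 0.51 (adjusted p = 1). That value set the knockout effect over both media against the wild-type effect with methionine alone. Under these 2 settings the wild-type value of Ssr4 was -0.27 and, with methionine alone, -0.35, and was not called (adjusted p = 0.53 and 0.19).

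Within single combinations of genotype and medium, with 2 arrays against 2, fewer calls were made. In wild-type livers with methionine 5 members passed (7.71% of all genes), in wild-type livers without it 3 (4.27%), in knockout livers with methionine 11 (8.76%) and in knockout livers without it 4 (3.52%). With the pool as a block these counts were 8, 5, 13 and 11. With methionine, Sec63, Ssr3, Dad1 and Stt3a were called in both genotypes, Ssr1 in wild-type livers as well, and Sec62, Spcs1, Rpn1, Magt1, Canx, Pdia3 and Pdia6 in knockout livers as well. Without it, Sec62 at -0.97, Sec63 at -0.99, Ssr2 at 0.73 and Dad1 at 0.82 were called in knockout livers. The 3 members lower in wild-type livers without methionine were Sec11c, a catalytic subunit of signal peptidase, at -0.96, Krtcap2 at -0.85 and Ssr4 at -0.70. Calls within single combinations rested on few arrays. Without some single array, all 5 calls in wild-type livers with methionine, all 3 in those without it, 10 of the 11 in knockout livers with methionine (all but Sec62) and all 4 in those without it were lost. Ssr2 was lost without any 1 of 14 arrays (0.66 to 0.79 over the 16). Sec11c read 749.5 and 611 in unfractionated and 294 and 390.1 in polysome RNA of these livers, so the arrays of the fractions did not overlap, as in 11 members that were lower there (20.3% of all genes) and 8 that were higher (28.1%).

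The effect of methionine was read as medium without methionine minus medium with it. In unfractionated RNA of wild-type livers 29 of the 35 members had a positive value and the median was 0.37, while 47.6% of all genes had a positive value and their median was -0.02. No member passed the adjusted threshold in limma (0 of 35, against 0.0641% of all genes), although 17 had an unadjusted p under 0.05. In 24 members both arrays without methionine lay above both arrays with it, and in 3 both lay below, where 18.2% and 20.2% of all genes did so. All 10 oligosaccharyltransferase subunits (0.16 to 0.65), all 5 signal peptidase subunits (0.07 to 0.80), all 4 TRAP subunits (0.32 to 0.76) and all 4 folding enzymes (0.27 to 0.71) had positive values. The 7 genes of the signal recognition particle and its receptor had a median of -0.15 and lay between -0.43 and 0.05. These values came from 2 pools a side, and the shared position of many members on an array is 1 observation and not one for each gene.

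P4hb had the smallest p value of the members there. Its signal was 2972 and 3083 with methionine and 4575 and 4619 without it, a difference of 0.60 ± 0.13 (adjusted p = 0.13). Spcs3 had 512 and 609 against 1041 and 927 (0.80 ± 0.18, adjusted p = 0.15), and Ssr1 had 469 and 579 against 828 and 965 (0.76 ± 0.18, adjusted p = 0.19). In each of the 3 genes the arrays of the media did not overlap.

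In unfractionated RNA of livers without Gcn2, 24 members had a positive value (50.5% of all genes), the median was 0.11 against 0.00 for all genes tested, and again no member passed (0 of 35 in limma, 0% of all genes, 3 with an unadjusted p under 0.05). The 3 members with the smallest p values were Spcs1 at 0.54, Pdia6 at 0.42 and Tusc3, an oxidoreductase subunit of the Stt3b form, at 0.55, with adjusted p values of 0.81, 0.87 and 0.88. The genotype difference of the methionine effect (knockout minus wild-type) was positive in 9 of 35 members, where 50.6% of all genes had a positive one, with a median of -0.26 against 0.01 for all genes tested, and passed in 0 (limma, 0.0458% of all genes, 5 members with an unadjusted p under 0.05). Spcs3 at -0.72 ± 0.25, Tram1 at -0.63 ± 0.27 and P4hb at -0.42 ± 0.18 had the smallest p values, with adjusted p values of 0.75, 0.82 and 0.82. The genotypes are thus not shown to differ here for any single member.

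**Figure D3:**
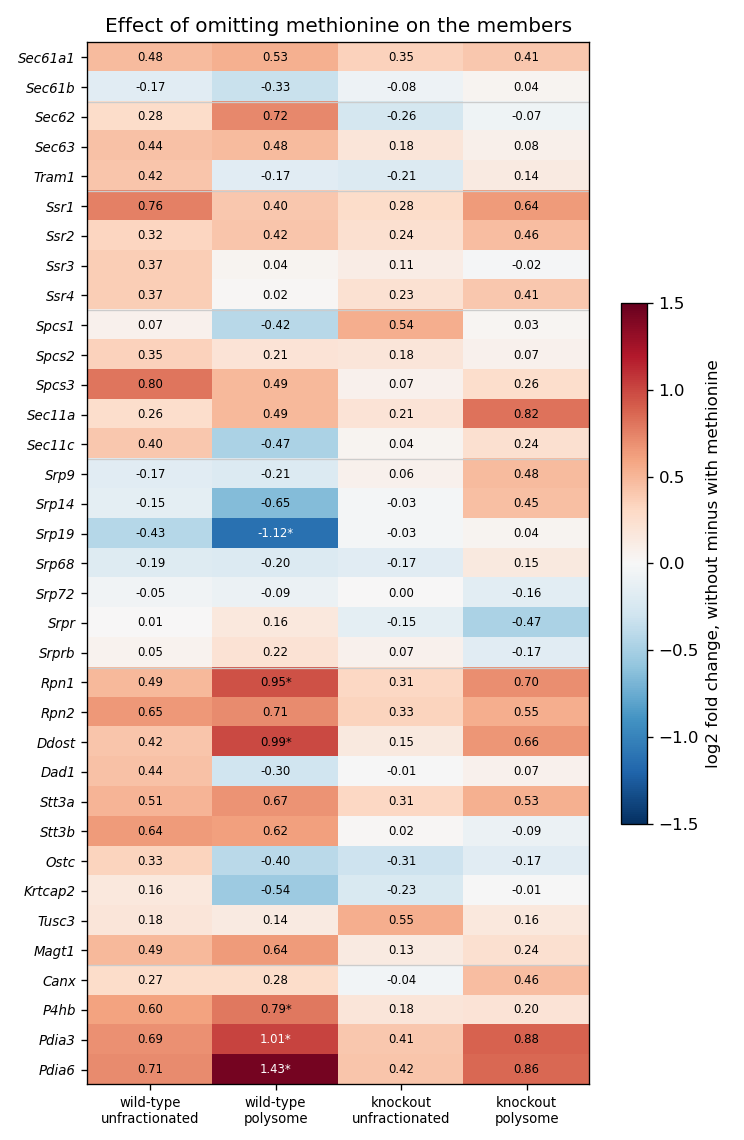
Methionine effect (log2 fold change, medium without methionine minus medium with it) of the 35 members in the 4 combinations of genotype and fraction, 2 arrays against 2 in each cell; red is higher without methionine, blue lower, and an asterisk marks an adjusted p of at most 0.05. The 6 asterisks all stand in wild-type polysome RNA, where Pdia6 has 1.43 and Srp19 -1.12.

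In polysome RNA of wild-type livers 6 members passed the test, where 2.57% of all genes did. Of these, 3 folding enzymes and 2 core subunits of oligosaccharyltransferase rose (higher in 1.46% of all genes) and 1 protein of the signal recognition particle fell (lower in 1.12%). Pdia6 rose from 702 and 662 with methionine to 1885 and 1832 without it, by 1.43 ± 0.19 (adjusted p = 0.002). P4hb rose from 2444 and 2397 to 4295 and 4113, by 0.79 ± 0.13 (adjusted p = 0.0064), and Pdia3 from 503 and 811 to 1261 and 1341, by 1.01 ± 0.25 (adjusted p = 0.047). In all 3 disulfide isomerases the arrays of the media were apart, as in 17 members that were higher there (24.6% of all genes) and 7 that were lower (22%), and the arrays of Pdia3 with methionine were far from each other. Calnexin had 989.8 and 1234 against 1325 and 1371 and did not pass, at 0.28 ± 0.17 (adjusted p = 0.41).

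Among the subunits of oligosaccharyltransferase, Ddost, a noncatalytic core subunit, rose from 347 and 307 to 715 and 619, by 0.99 ± 0.17 (adjusted p = 0.0071). Rpn1 rose from 610.1 and 719 to 1396 and 1199, by 0.95 ± 0.18 (adjusted p = 0.012), and 4 further probe sets of Rpn1 above the limit for dim genes gave 1.03 to 1.18. With the mean of all probe sets of a gene, dim ones included, Rpn1 (0.84, adjusted p = 0.057) and Pdia3 (0.68, adjusted p = 0.13) were not called, and Pdia6 had 0.95 (adjusted p = 0.028). Rpn2, ribophorin II, had 387 and 412 against 614 and 713 (0.71 ± 0.19, adjusted p = 0.065), Stt3a had 0.67 ± 0.23 (adjusted p = 0.15), Stt3b 0.62 ± 0.20 (adjusted p = 0.11) and Magt1 0.64 ± 0.19 (adjusted p = 0.088), none of which passed. The small subunits had negative values that did not pass: Krtcap2 had -0.54, Ostc -0.40 and Dad1 -0.30. The values of the complex thus lay on both sides of 0 in polysome RNA, 7 positive and 3 negative (52.5% of all genes positive). All 10 were positive in unfractionated RNA (47.6% of all genes), where another probe set of Krtcap2 had -0.04. The effect in polysome RNA beyond that in unfractionated RNA passed for 0 of the 10 and was positive in 5.

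Srp19, the protein that prepares the RNA of the signal recognition particle for binding its signal-recognising subunit, fell from 1119 and 1581 to 661 and 553, by 1.12 on the log2 scale (SE 0.22, adjusted p = 0.015). Srp14, one of the proteins that slow elongation, had 1828 and 2095 against 1083 and 1427 and did not pass, at -0.65 ± 0.27 (adjusted p = 0.23). Over the whole list the median was 0.22 against 0.02 for all genes tested, and 23 of 35 values were positive (52.5% of all genes). Dividing each array by its median moved the median of all genes to -0.27 and that of the members to -0.07, so the members stayed 0.20 above all genes, and left Pdia6 (1.09) and Srp19 (-1.45) as the calls.

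Pdia6 was the only 1 of the 6 that was also called without any 1 array (1.38 to 1.47). Without array 1 of the wild-type polysome group lacking methionine, which had the lowest mean correlation with the other polysome arrays (0.954 against 0.961 to 0.966), the other 5 calls were lost, Rpn1 at 0.84, Ddost at 0.89, P4hb at 0.76, Pdia3 at 1.05 and Srp19 at -1.24, with adjusted p values of 0.071 to 0.22. Without array 2 of the group with methionine Ddost (0.91), P4hb (0.78), Pdia3 (1.34) and Srp19 (-0.87) were lost, and without array 2 of the group lacking methionine Pdia3 (0.96) and Srp19 (-0.99). Pdia3 was lost without any 1 of 10 arrays, with values from 0.67 without array 1 of the group with methionine to 1.34.

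**Figure D4:**
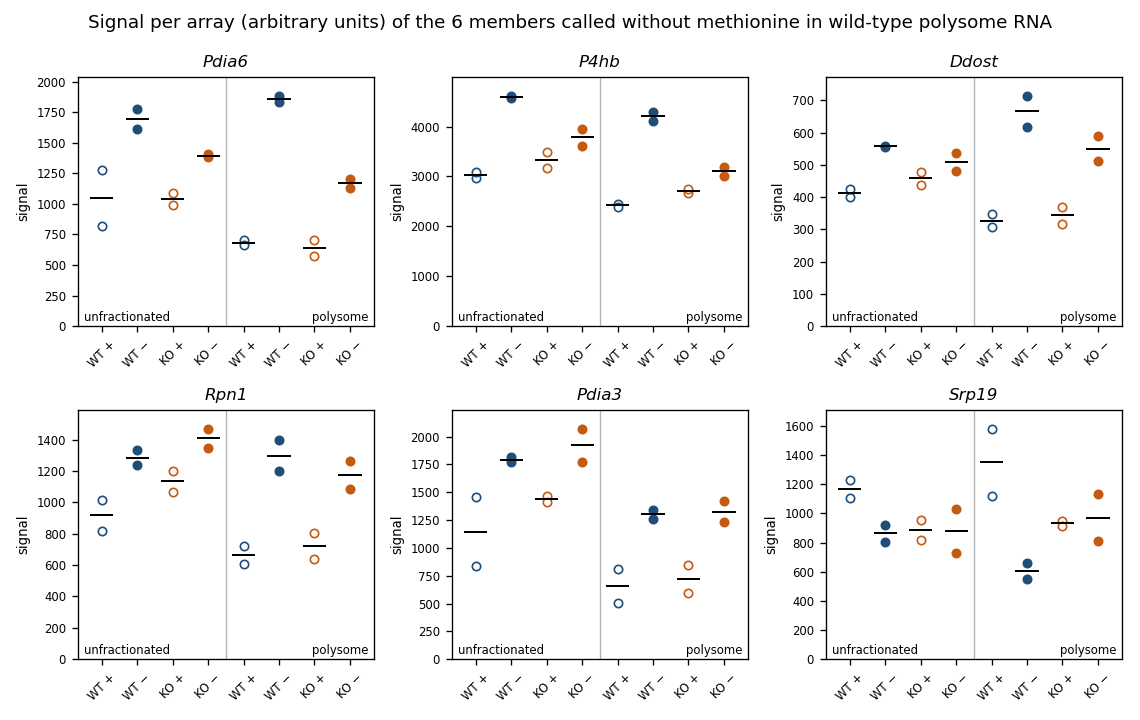
Signal per array of the 6 members called between the media in wild-type polysome RNA (linear axis from 0, arbitrary units), with WT for wild-type, KO for knockout, + and − for medium with and without methionine; open points are arrays with methionine, filled points arrays without it, and the bar is the mean of 2 arrays. Filled points lie above open ones for Pdia6, P4hb, Ddost, Rpn1 and Pdia3 in wild-type and in knockout polysome RNA, and for Srp19 they lie below in both fractions of wild-type livers.

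In polysome RNA of knockout livers no member passed (0 of 35 in limma, 0.156% of all genes, 13 with an unadjusted p under 0.05), 27 values were positive (49.4% of all genes) and the median was 0.20 against 0.00 for all genes tested. Sec11a, a catalytic subunit of signal peptidase, had 874 and 870.1 with methionine and 1382 and 1746 without it (0.82 ± 0.17, adjusted p = 0.077). Pdia6 had 573 and 704 against 1132 and 1202 (0.86 ± 0.19, adjusted p = 0.097), and Rpn1 had 638 and 803 against 1266 and 1087 (0.70 ± 0.18, adjusted p = 0.17). The arrays of the media did not overlap in any of these 3 genes, as in 16 members that were higher there (18.8% of all genes). Ddost had 0.66, Pdia3 0.88 and P4hb 0.20 there, and Srp19 had 949.6 and 912 against 807 and 1135, or 0.04. With quantile normalization 1 member passed in this comparison.

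The difference of these effects between the genotypes did not pass for any member (0 of 35 in limma, 0.055% of all genes, 8 with an unadjusted p under 0.05). It was 1.16 ± 0.31 for Srp19 (adjusted p = 0.26), -0.60 ± 0.18 for P4hb (adjusted p = 0.31), 0.69 ± 0.23 for Srp9, the partner of Srp14 (adjusted p = 0.34), and -0.57 ± 0.27 for Pdia6 (adjusted p = 0.50). The genotypes are thus not shown to differ in polysome RNA either. The effect in polysome RNA beyond that in unfractionated RNA also passed for 0 members in either genotype (limma, 0% of all genes in both), with 8 members under an unadjusted p of 0.05 in wild-type and 3 in knockout livers. In wild-type livers the smallest p values were those of Dad1 at -0.74 ± 0.27, Sec11c at -0.87 ± 0.32 and Pdia6 at 0.71 ± 0.27, each with an adjusted p of 0.70. In knockout livers they were those of Sec11a at 0.61, Canx at 0.50 and Ddost at 0.51, with adjusted p values of 1. The genotype difference of that value passed for 0 members (limma, 0% of all genes, 4 with an unadjusted p under 0.05), with Tram1 at 0.93, Sec11c at 1.07 and Krtcap2 at 0.93 nearest to it.

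Neither channel subunit passed in any of the 4 comparisons of the media. Sec61a1 had 844 and 972 with methionine against 1331 and 1212 without it in unfractionated wild-type RNA, and 789.9 and 1316 against 1478 and 1492 in polysome RNA. In knockout livers it had 871 and 1000.4 against 1296 and 1103 in unfractionated RNA, and 927 and 974 against 1420.3 and 1129.8 in polysome RNA. Both arrays without methionine lay above both with it in each of the 4 combinations, as 15 members did in unfractionated knockout RNA (18.7% of all genes), with differences of 0.48, 0.53, 0.35 and 0.41 and adjusted p values of 0.70, 0.20, 0.92 and 0.60. Sec61b, the small subunit at the side of the channel, had -0.17, -0.33, -0.08 and 0.04 in the same order, with adjusted p values of 0.92, 0.28, 0.99 and 0.97. Calls were made on 1 probe set per gene. The 4 further probe sets of Sec61a1 above the limit for dim genes gave higher values in wild-type polysome RNA, at 0.78 to 1.15. They gave 0.34 to 0.55 in unfractionated wild-type RNA, 0.12 to 0.69 in unfractionated knockout RNA and 0.36 to 0.51 in knockout polysome RNA.

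**Figure D5:**
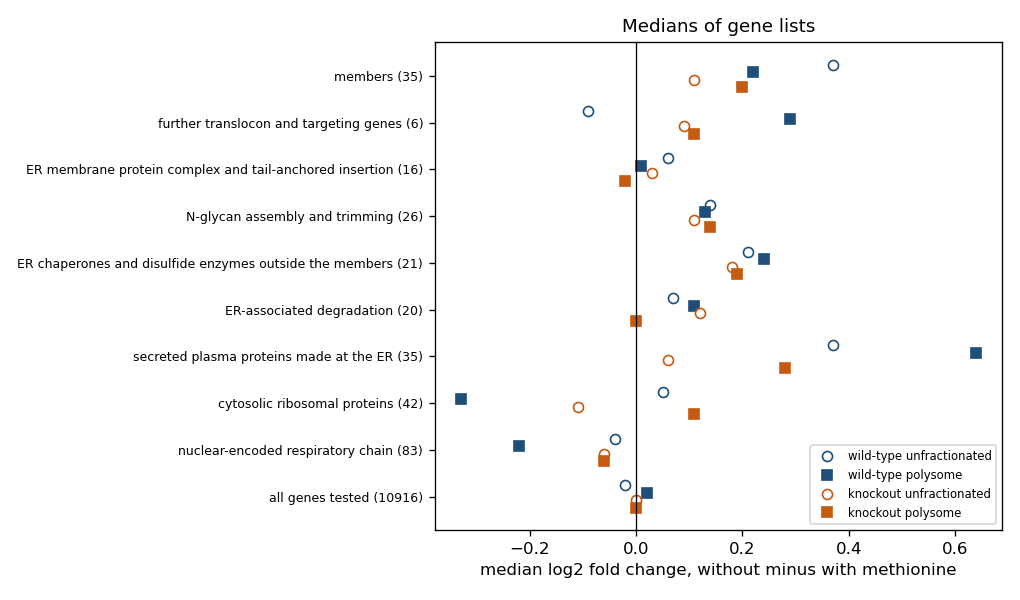
Median log2 fold change without minus with methionine over the members and over related and comparison lists, with the number of genes tested in brackets, in the 4 combinations of genotype and fraction. The members have 0.37 and 0.22 and the secreted plasma proteins 0.37 and 0.64 in unfractionated and polysome RNA of wild-type livers, and all genes tested lie between -0.02 and 0.02.

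Genes of proteins that pass through this machinery were called in the same comparison. Of 35 secreted plasma proteins, 17 rose and 0 fell in wild-type polysome RNA, with Fga, a fibrinogen chain, at 1.23 ± 0.16, Serping1, the C1 inhibitor, at 1.09 ± 0.14, and Cfb, complement factor B, at 1.16 ± 0.17. All 35 values were positive there (median 0.64) and also in unfractionated RNA (median 0.37), where 0 passed in limma. In knockout livers 31 were positive in polysome RNA (median 0.28), where Serpinc1, antithrombin, rose by 0.74 ± 0.14 and 0 fell. Ribosomal proteins went the other way in wild-type polysome RNA, where 8 of 42 fell and 0 rose (median -0.33), as did 10 of 83 respiratory chain genes (median -0.22).

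Lists closer in function to the members held few calls. Among other ER chaperones and disulfide enzymes, Pdia5 rose in wild-type polysome RNA by 0.91 ± 0.20 (adjusted p = 0.028), as 1 of 21 with 0 lower. Sil1, the exchange factor of the lumenal chaperone, rose by 1.12 ± 0.22 (adjusted p = 0.016) there and by 1.26 ± 0.22 (adjusted p = 0.041) in knockout polysome RNA, 1 of 6 further targeting genes in each. Uggt1, the folding sensor of the calnexin cycle, rose by 0.95 ± 0.23 as 1 of 26 genes of N-glycan assembly and trimming, and Ufd1, of the degradation complex, by 0.81 ± 0.20 as 1 of 20. In the ER membrane protein complex and tail-anchored insertion 0 of 16 passed in any of the 4 methionine comparisons.

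Of the markers of other cells, 1 of 5 stellate cell markers (Dcn, 0.93 ± 0.23) passed between the media in wild-type polysome RNA, and 0 of 9 Kupffer cell, 0 of 6 endothelial and 0 of 2 cholangiocyte markers did. Of 4 tested B and plasma cell markers (8 on the array) 0 passed in wild-type livers, and their list summed to 118 to 195 per array in wild-type livers with methionine, to 379 to 615 without it, and to 596 to 2632 in knockout livers. Endothelial markers summed to 502 and 595 in wild-type polysome RNA with methionine and to 715 and 826 without it, and hepatocyte markers to 83952 and 93817 against 102479.8 and 115352, with 1 of 9 higher (Asgr1, 0.80 ± 0.18). In the same arrays stellate cell markers summed to 802 and 867 against 1141 and 1259, cholangiocyte markers to 67.1 and 95.2 against 109 and 201, and Kupffer cell markers, which overlapped, to 1125 and 1441 against 1191 and 1694. Plasma cells use the same secretory machinery, and the part of these cells in the members' values was not tested.

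Without regard to medium and fraction, 1 member differed between the genotypes, where 4.24% of all genes did. Stt3b was higher in knockout livers, with 1103 to 1497 (median 1223) in 8 knockout arrays and 704 to 1384 (median 894) in 8 wild-type arrays, a difference of 0.40 ± 0.10 (adjusted p = 0.03). The wild-type arrays with methionine lay at 704 to 825, below every knockout array, and those without methionine reached into the knockout range. The call was lost without any 1 of 9 arrays (0.35 to 0.45 over all 16), and with the pool as a block its adjusted p was 0.062. In unfractionated RNA 0 members passed (limma, 1.06% of all genes, 2 with an unadjusted p under 0.05), with Stt3b at 0.46 ± 0.14 (adjusted p = 0.19), Krtcap2 at -0.35 ± 0.14 (adjusted p = 0.46) and Dad1 at -0.27 ± 0.13 (adjusted p = 0.64) nearest to it. These calls rest on 1 probe set per gene. The other Stt3b probe set (mean signal 328) had 0.21 over all arrays and 0.11 in polysome RNA. Median scaling, the mean of a gene's probe sets and eBayes without trend each ended the Stt3b call. For Ssr1, which was not called, the probe set used had -0.21 over all arrays and -0.24 in polysome RNA. Another Ssr1 probe set above the limit for dim genes (mean signal 387) had 0.92 and 1.03.

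In polysome RNA 4 members differed between the genotypes, where 4.52% of all genes did. Ssr4 was higher in the knockout, with 2012, 1891, 2612 and 2581 in 4 knockout arrays and 1434, 1606, 1495 and 1578 in 4 wild-type arrays, a difference of 0.56 ± 0.10 (adjusted p = 0.0069). The arrays of the genotypes did not overlap, as in this 1 member that was higher (3.22% of all genes), and the call was also made without any 1 array. Srp14 was higher, with 1762, 2756, 2219 and 4109 against 1828, 2095, 1083 and 1427 (0.72 ± 0.19, adjusted p = 0.041), and overlapped. Sec62 was lower, with 1070.1, 810.5, 754 and 1038 against 1220.2, 1044, 1961 and 1781 (-0.67 ± 0.14, adjusted p = 0.014). Srpr, the alpha subunit of the receptor, was lower too, with 1104, 1126, 879 and 734 against 1121, 1421, 1469.8 and 1351 (-0.49 ± 0.12, adjusted p = 0.031). The wild-type arrays without methionine held the highest values of Sec62 and the lowest of Srp14.

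Without both of those arrays 0 of the 4 calls were left, with Ssr4 at 0.36, Srp14 at 0.17, Sec62 at -0.27 and Srpr at -0.18. The other 3 calls were each lost without some single array as well, Sec62 without any 1 of 3, Srpr of 6 and Srp14 of 11, over which their values ran from -0.78 to -0.56, from -0.57 to -0.40 and from 0.50 to 0.94. Taking the mean of all probe sets of a gene also ended the 4 calls, with Ssr4 at 0.18. That mean takes in dim probe sets. The other Ssr4 ones, with mean signals of 43.6 and 24.3, had -0.29 and 0.27. The other Srp14 ones had 0.44 to 0.51. Those of Sec62 had -0.63 at a mean signal of 1059.9 and -0.39 to 0.09 at 81.9 or less. In the same comparison 19 of 42 ribosomal proteins and 16 of 83 respiratory chain genes were higher in the knockout (medians 0.38 and 0.20), with 0 and 3 lower.

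Some markers of other cells differed between the genotypes as well, in the fit without the pool as a block. Over all arrays Ighm, the heavy chain of IgM, was the 1 of 4 B and plasma cell markers that was higher in the knockout, at 3.30 ± 0.33 (adjusted p = 1.3e-05). Of 9 Kupffer cell markers 2 were lower, Cd5l at -1.18 ± 0.13 (adjusted p = 6e-05) and Csf1r at -0.48 ± 0.12 (adjusted p = 0.036), and all 9 had negative values. Their list summed to 2633 to 3037 in unfractionated wild-type RNA and to 1461 to 2044 in unfractionated knockout RNA, and to 1125 to 1694 and 868 to 1443 in polysome RNA. Of 5 stellate cell markers 2 were higher, Rgs5 at 0.65 ± 0.12 and Dcn at 0.43 ± 0.11, and of 9 hepatocyte, 6 endothelial and 2 cholangiocyte markers 0 passed. The part of these cells in the genotype values of Stt3b, Ssr4, Srp14, Sec62 and Srpr was not tested.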

How the data were processed

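RNA of pools of perfused livers was measured on 1-colour Affymetrix arrays, 16 in all, in 8 groups of 2. Since the fractions were taken to share pools, the 16 arrays do not stand for 16 independent pools. The values analysed are intensity values of 45101 probe sets, deposited by the authors as a linear signal. The algorithm behind the signal was not given in the sources used here. With the top and bottom 2% of probe sets left out, every array had a mean of 150.0, so the table had been scaled, and it was kept on that scale. Array medians (18.3 to 27.7) lie among probe sets that are not bright, since 26.9% to 28.5% of probe sets reached a signal of 80, so scaling by the median served as an alternative. The deposited table of z scores and z ratios was not used here, since it holds no replicate error. All columns matched a sample, with 0 left over.

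Probe sets were named through the supplied platform annotation, with symbols checked against RefSeq (GRCm38.p6), and 34945 had 1 symbol, 932 several and 9160 none. The probe set with the highest mean stood for its gene, and the dimmest 40% of genes were not tested. A linear model of log2(signal + 16) on the 8 groups was fitted in R 4.3.3 by limma 3.58.1, with a trend in eBayes and two-sided p-values, adjusted by Benjamini-Hochberg over 10916 genes within each of 20 comparisons. The pseudocount of 16 understates the changes of dim genes. The fit was tested on simulated data.

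The labels call the arrays biological replicates, each a pool of 2 livers, and 2 arrays a group limit the precision. The labels do not say that arrays with the same number in both fractions share a pool. Deviations of same-numbered arrays of the fractions correlated at 0.184 to 0.317 in all 4 combinations, so the numbers were taken as pairs and the pool as a random block (correlation 0.235) was an alternative. Between media these correlations were -0.0211 to 0.224.

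Members and lists were chosen with earlier results of these data known. All members could be named, and the text names those that passed in each comparison, the 3 with the smallest p where none passed, and up to 3 called genes of each other list. Alternatives were median scaling, quantile normalization, other pseudocounts and filters, the mean of a gene's probe sets, eBayes without trend, the block, groups fitted alone, leaving out both wild-type polysome arrays without methionine, and leaving out each array.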

Additional observations from a re-analysis of the deposited data

Results flagged for a closer look

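At the probe set used, Krtcap2, a subunit of the Stt3a form of oligosaccharyltransferase, went opposite ways between the media in the genotypes in unfractionated RNA. Both wild-type arrays without methionine (1189 and 1133) lay above both with it (984 and 1088), and both knockout arrays without it (798 and 776) lay below both with it (1015 and 845). The genotype difference of the methionine effect was -0.40 ± 0.28 and did not pass (limma, adjusted p = 0.93). The other probe set of Krtcap2 was about as bright, with a mean signal of 888 against 935. Its methionine effect was -0.04 in wild-type and -0.25 in knockout unfractionated RNA, so it did not show opposite directions.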

How the results depend on the processing

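Of 555 counts of called members under other settings, 470 stayed within 1.5 times the reported count. Of 2950 values of single genes 0 were counted as reversed, which does not mean that no sign changed. Median scaling left 16 members positive for methionine in wild-type polysome RNA, against 23 as reported. Between the fractions in wild-type livers without methionine it left 6 positive, against 13. With median scaling of the arrays the fraction comparison called 4 members in wild-type and 9 in knockout livers, 0 in wild-type livers with methionine, 2 in knockout livers with it and 0 without it. The methionine comparison in wild-type polysome RNA then called 2, and the genotype comparisons over all arrays and in polysome RNA 0 each. Quantile normalization called 1 in the methionine comparison of knockout polysome RNA, and no filter on dim genes called 2 between the fractions in wild-type livers with methionine. The mean of a gene's probe sets gave 3 between the fractions in wild-type livers, 1 and 0 in these with and without methionine, 4 and 2 in knockout livers with and without it, and 0 in both genotype comparisons. eBayes without trend gave 4, 0, 1, 3 and 1 in the same 5 fraction comparisons, 3 for methionine in wild-type polysome RNA, and 0 and 2 between the genotypes. The pool as a random replicate block gave 8 and 5 between the fractions in wild-type livers with and without methionine, 11 in knockout livers without it, 1 for the genotype difference of the fractions and 0 between the genotypes. It also called 20 over all arrays, 10 in wild-type, 20 in knockout and 13 in knockout livers with methionine between the fractions. Every member whose call the block changed between the fractions was gained, 4 over all arrays, 2 each in wild-type and knockout livers, and 3, 2, 2 and 7 in the single combinations. Outside the fraction comparisons it added Ssr4 for the genotype difference of the fractions (adjusted p = 0.041), ended the genotype call of Stt3b (0.062) and changed no other member's call. With the pair of wild-type polysome arrays from medium lacking methionine left out, 5 were called between the fractions in wild-type livers and 0 between the genotypes in polysome RNA. Both of these comparisons then held medium with methionine alone. Arrays of the groups compared alone gave 1 and 4 between the fractions with methionine in wild-type and knockout livers, 0 in knockout livers without it, 1 for methionine in wild-type polysome RNA and 1 between the genotypes there. Leaving out 1 array at a time gave 15 to 17 between the fractions over all arrays, 3 to 9 in wild-type and 11 to 18 in knockout livers, 0 to 5 and 0 to 3 in wild-type livers with and without methionine, 1 to 11 and 0 to 4 in knockout livers with and without it, 1 to 7 for methionine in wild-type polysome RNA, 0 to 2 between the genotypes over all arrays and 1 to 5 in polysome RNA, and 0 elsewhere. The cause of these moves was not tested, apart from the fewer arrays in the settings that leave arrays out.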
